A study of Mus musculus with 5 samples.

Results

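Expression of 10 genes for subunits of the Polycomb repressive complexes was described in mouse neural stem cells (NSCs) and STO cells. The genes were listed by name, with earlier results of these data known. Of them, 7 encode subunits of Polycomb repressive complex 2 (PRC2), namely Ezh1, Ezh2, Eed, Suz12, Jarid2, Rbbp4 and Rbbp7, and 3 encode subunits of PRC1, namely Bmi1, Ring1 and Rnf2. Their 18 RefSeq transcripts were summed by gene, among 25414 genes in all. The NSC samples, 2 replicates labelled C57BL/6, were primary cells of the embryonic mouse cortex, grown for 5 to 8 passages as monolayers on laminin with EGF and bFGF. The STO samples, 3 replicates with the same strain label, were a line of SIM embryonic fibroblasts, a thioguanine- and ouabain-resistant feeder line past 30 passages, grown in medium with serum. The cell types differed in tissue, medium, passage and origin at once, and these cannot be told apart. Nothing in the labels says whether replicates were separate cultures, so the p-values measure only the spread between these samples, which may be technical.

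PRC2 places methyl groups on lysine 27 of histone H3 (H3K27) through its catalytic subunit EZH2 or EZH1. EED and SUZ12 hold the enzyme in its active form, RBBP4 or RBBP7 contacts histones, and further subunits such as JARID2 guide the complex to chromatin. PRC1 attaches ubiquitin to histone H2A through RING1 or RNF2 (RING1B) paired with 1 PCGF protein, of which BMI1 (PCGF4) is the best known. Together the complexes hold developmental genes silent, and in neural stem cells they are known for restraining the Ink4-Arf locus and for setting the timing of neuron and glia production.

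Both starts of Jarid2 and the promoters of Suz12 and Ezh2 are printed first, because the results below return to the Jarid2 start sites and because these were the members whose promoter window held an E2F motif, the site of a factor family tied to the cell cycle. The files give Jarid2 on the forward strand at mm9 chr13:44826143-45017012, with 2 transcripts from its first base and 2 from a start 497 bases further down. The 150 bases before each start carry no exon of the GENCODE annotation, and those of the downstream start lie between exons of the transcripts from the upstream one. Capitals mark the letters TATAAA, which were looked for after the sequence had been read. They stand at position -31 before the downstream start and neither they nor their reverse complement occur before the upstream one. Of all promoters in the RefSeq table, 4.84% hold TATAAA in the 150 bases before the start, and 1.99% begin it between 40 and 20 bases before the start.
Jarid2 upstream start, chr13:44825993-44826142: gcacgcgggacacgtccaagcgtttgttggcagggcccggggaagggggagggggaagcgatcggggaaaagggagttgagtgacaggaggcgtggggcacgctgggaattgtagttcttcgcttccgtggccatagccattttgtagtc
Jarid2 downstream start, chr13:44826490-44826639: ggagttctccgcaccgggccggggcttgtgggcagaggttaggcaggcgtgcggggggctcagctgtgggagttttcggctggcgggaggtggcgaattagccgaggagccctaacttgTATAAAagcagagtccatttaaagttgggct

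The E2F motif was searched as TTTGGCGC, TTTCGCGC, TTTCCCGC or TTTGCCGC on both strands in RefSeq promoter windows of build GRCm38.p6, each with 250 bases before and 50 after a gene's start. All 10 members had a window, and 2 of them, Ezh2 and Suz12, held a motif, against 2.26% of 32851 windows. Each motif holds a CpG, and every member's window held more CpG than the median window. These shares are therefore not like for like, and enrichment was not tested. Of 42 other genes of the lists named below that had a window, 4 held it, namely Phf19, Cdk1, Mcm5 and Cdkn2a. In Suz12 the motif TTTCCCGC begins at position -219, and in Ezh2 the motif TTTGGCGC begins at the 4th transcribed base. Below, capitals mark the motif and the letters are those of mm9, which equal the RefSeq window. Suz12 is shown on the forward strand and Ezh2, a gene of the reverse strand, as its own strand reads.
Suz12, 250 bases before the start, chr11:79806358-79806607: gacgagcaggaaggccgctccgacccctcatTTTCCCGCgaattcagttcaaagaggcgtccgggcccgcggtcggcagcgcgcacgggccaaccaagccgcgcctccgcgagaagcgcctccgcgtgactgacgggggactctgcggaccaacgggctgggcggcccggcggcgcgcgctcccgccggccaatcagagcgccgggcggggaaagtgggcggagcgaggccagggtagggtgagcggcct
Ezh2, 30 bases around the start, chr6:47545008-47545037: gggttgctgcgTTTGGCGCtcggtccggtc

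The promoters of all members were rich in CpG. Their windows held from 17 CpG dinucleotides in Eed to 41 in Suz12, against a median of 7 over all windows, and their GC content ran from 54.7% in Eed to 75.7% in Rbbp7, against a median of 52.7%. Motif matches and base content are descriptions of these letters and were not related to the values below.

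The authors gave expression as FPKM, fragments scaled by transcript length and by the depth of the sample, so levels of different genes can be set side by side. Differences are STO minus NSC on the log2(FPKM + 1) scale, fitted with limma over the 12292 genes whose mean reached 1 FPKM in either cell type. This scale understates the change of low genes such as Ezh1. Adjusted p-values are Benjamini-Hochberg values over all genes fitted, and a gene was called at an adjusted p under 0.05. The confidence bounds beside the FPKM values implied 15223341 to 22271895 fragments per sample, and replicates correlated across genes at Pearson's r of 0.994 to 0.995. Among members the implied fragments per sample ran from 188 for Ezh1 to 3801 for Bmi1. Read as counts, they would put counting error at 7.30% or less for Ezh1 and 6.23% or less for Jarid2 in STO cells. They did not follow level and transcript length. Rbbp7, at 100 FPKM or more over 2244 bases, had 1761 to 2008. Bmi1, at 22.6 to 32.5 FPKM over 3594 bases, had 2440 to 3801. The bounds were therefore not counting error alone, and these figures are approximate.

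Marker genes matched the labels. Neural stem cell markers (Sox2, Nes, Pax6, Olig2) summed to 943.3 and 989 FPKM in NSCs and to at most 0.0724 in STO cells, where Sox2, Pax6 and Olig2 were listed at 0 in all 3 samples. Fibroblast markers (Col1a1, Col1a2, Col3a1, Fn1) summed to 1283 to 1397 FPKM in STO cells and to 3.997 and 4.25 in NSCs, nearly all of it Fn1. Markers of glia moved with the cell type too. Astrocyte markers (Gfap, Aqp4, Aldh1l1) summed to 64.5 FPKM in both NSC samples and oligodendrocyte markers (Mbp, Mog) to 83.9 and 88.8, against at most 0.219 and 0.163 in STO cells. The oligodendrocyte sum in NSCs was nearly all Mbp, and Mog, at 0.503 and 0.578 FPKM there, did not reach the filter. Neuron markers (Tubb3, Dcx, Stmn2) summed to 12.8 to 14.2 FPKM in NSCs and 7.84 to 8.57 in STO cells, where Tubb3 made up nearly all. Markers of microglia or blood and of endothelium reached at most 0.386 and 0.503 FPKM summed, and no gene of those lists passed the filter. The part of glial cells in the NSC values below was not tested, and fewer cells of a type cannot be told apart from less RNA per cell.

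Jarid2 was the member that differed most between the cell types, and it was higher in NSCs. JARID2 joins PRC2 as a cofactor without catalytic activity, binds nucleosomes and helps recruit the complex. Its level was 12.9 and 13.2 FPKM in the NSC samples and 3.08, 2.67 and 2.56 FPKM in the STO samples. The groups lay far apart and the spread within each was small. The mean level was 4.71-fold higher in NSCs, 13.03 ± 0.158 FPKM (SD, n = 2) against 2.77 ± 0.275 FPKM (SD, n = 3), and the difference was -1.90 with SE 0.07 (limma, adjusted p = 1.1e-06). Set against the catalytic subunits, Jarid2 had 0.347 and 0.388 FPKM per FPKM of Ezh1 and Ezh2 together in NSCs, and 0.0641 to 0.0836 in STO cells.

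The other PRC2 members, which encode its core subunits, formed a mixed picture. Ezh2 was at a like level in both cell types, Ezh1, Suz12, Eed and Rbbp7 were higher in STO cells and Rbbp4 was lower.

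**Figure D1:**
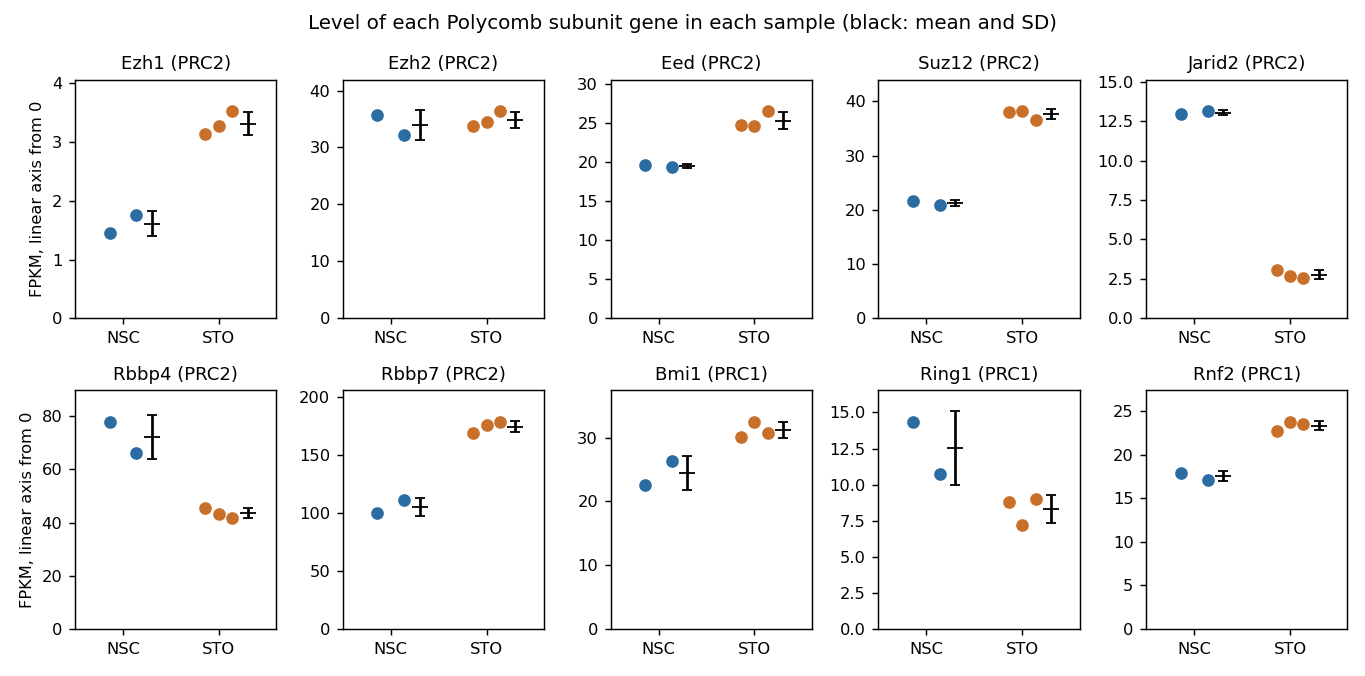
FPKM of each of the 10 Polycomb genes in the 2 NSC samples (blue) and the 3 STO samples (orange), on linear axes that start at 0, with the mean and SD of each cell type in black. The cell types overlap for Ezh2, and for no other member. Jarid2 lies near 13 FPKM in NSCs and near 3 FPKM in STO cells.

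Ezh2, at mm9 chr6:47480273-47545029 on the reverse strand, encodes the methyltransferase that predominates in dividing cells. It was measured at 35.8 and 32.2 FPKM in NSCs and at 33.7, 34.4 and 36.4 FPKM in STO cells. The STO values lay within or just above the NSC range. The difference was 0.038, with a 95% interval from -0.13 to 0.20 (limma, adjusted p = 0.61), which leaves room for either sign. It turned to -0.037 without NSC replicate 2. After each sample was rescaled to the same total (TPM), which moved the median difference of all genes up, it was 0.21 with a limma adjusted p of 0.024.

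Ezh1, at chr11:101052429-101087777, encodes the paralog that is known for weaker methyltransferase activity and for its place in resting cells. It was the lowest member in NSCs, with 1.46 and 1.76 FPKM, and had 3.14, 3.27 and 3.53 FPKM in STO cells. The groups did not overlap. The mean was 2.06-fold higher in STO cells, and the difference was 0.73 with SE 0.07 (limma, adjusted p = 0.00011). It was 1.03 after rescaling to TPM and 1.14 after quantile normalization. Rescaling to TPM made all values larger while the pseudocount stayed at 1, so the value of 1.03 does not reflect the scaling of samples alone. Ezh2 exceeded Ezh1 in every sample, by 18.3 and 24.5 times in NSCs and by 10.3 to 10.7 times in STO cells.

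Suz12, at chr11:79806608-79847625, encodes the scaffold on which PRC2 is assembled. It was measured at 21.7 and 20.9 FPKM in NSCs and at 38.1, 38.3 and 36.6 FPKM in STO cells, where all values were higher. The difference was 0.79 with SE 0.05 (limma, adjusted p = 1.3e-05). The mean level was 1.77-fold higher, a smaller ratio than that of Ezh1, although on the log2(FPKM + 1) scale the difference of Ezh1 is the smaller one. Eed, at chr7:97103164-97129486, encodes the subunit that reads trimethylated H3K27 and stimulates the enzyme. It had 19.7 and 19.4 FPKM in NSCs and 24.8, 24.6 and 26.6 FPKM in STO cells, a difference of 0.36 with SE 0.06 (limma, adjusted p = 0.001), or 0.54 after rescaling to TPM. Suz12 and Eed, which stood close together in NSCs, stood apart at 37.7 and 25.3 FPKM on average in STO cells.

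Rbbp4 and Rbbp7 encode the histone-binding WD40 proteins RBBP4 and RBBP7, which also serve other complexes, and they moved in opposite directions. Rbbp4, at chr4:128984344-129012614, had 78.1 and 66.4 FPKM in NSCs and 45.7, 43.2 and 41.9 FPKM in STO cells. Its difference was -0.71 with SE 0.08 (limma, adjusted p = 0.00024). Rbbp7, at chrX:159198304-159217022, had 100.0 and 111.0 FPKM in NSCs and 169.5, 175.9 and 179.2 FPKM in STO cells. Its difference was 0.73 with SE 0.07 (limma, adjusted p = 7.4e-05). For both genes every STO sample lay on the same side of both NSC samples. Their sum rose less than Rbbp7 alone, from 178.1 and 177.4 FPKM to between 215.2 and 221.1 FPKM. These were the most abundant members in either cell type.

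Among the PRC1 members, Bmi1 and Rnf2 were higher in STO cells and Ring1 was lower. Rnf2, at chr1:153316528-153348121, encodes RING1B, the main H2A ubiquitin ligase. It had 17.9 and 17.1 FPKM in NSCs and 22.7, 23.8 and 23.5 FPKM in STO cells, a difference of 0.40 with SE 0.05 (limma, adjusted p = 0.00044). Bmi1, at chr2:18598645-18608256, is known as a factor that neural stem cells need for self-renewal. It had 22.6 and 26.3 FPKM in NSCs and 30.1, 32.5 and 30.8 FPKM in STO cells, so both NSC values lay below all STO values. Its difference was 0.34 with SE 0.08 (limma, adjusted p = 0.0063), and 0.52 after rescaling to TPM.

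Ring1, at chr17:34157737-34161625, encodes RING1A, the other ligase. It had 14.4 and 10.7 FPKM in NSCs and 8.78, 7.21 and 8.98 FPKM in STO cells. The groups did not overlap, but the NSC samples lay further apart than those of most members. The difference was -0.53 with SE 0.14 (limma, adjusted p = 0.011), and it was no longer called without NSC replicate 1, at -0.34 with a limma adjusted p of 0.12. Together Ring1 and Rnf2 had 27.8 and 32.3 FPKM in NSCs and 31.0 to 32.5 FPKM in STO cells.

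Of the 10 members, 9 passed the test, 6 higher and 3 lower in STO cells. Most genes differed between these cell types, since 85.6% of all genes fitted were called, 41.9% higher and 43.7% lower in STO cells. The members' count was near that background, and the same shares apply to the count of each list below. Groups did not overlap for 9 of the 10 members and for 89.9% of all genes. With a difference of at least 1 required, 1 member was called, the lower Jarid2, and none was called higher, while 38.4% of all genes were called, 17.1% higher and 21.3% lower. Ezh1 joined as a member higher by at least 1 with a pseudocount of 0.1, after rescaling to TPM and after quantile normalization. The median difference was 0.35 over the members and -0.02 over all genes. Rescaling to TPM moved the median of all genes to 0.14, and no called member changed direction under it. Relative to the median of all genes as deposited, Ezh2 stood at 0.06, Suz12 at 0.82 and Jarid2 at -1.88.

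**Figure D2:**
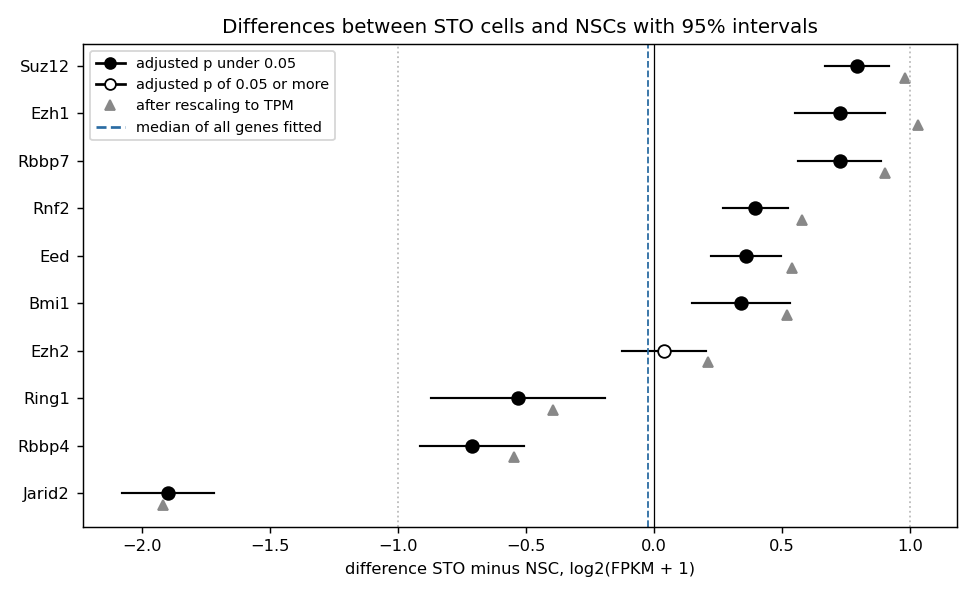
Difference of each member, STO minus NSC on the log2(FPKM + 1) scale, with its 95% interval (filled points: limma adjusted p under 0.05) and its value after rescaling to TPM (grey triangles). The dashed line is the median of all genes fitted, at -0.02, and dotted lines mark a difference of 1. Jarid2 at -1.90 lies apart from the other members, which run from -0.71 to 0.79.

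The order of the levels differed between the cell types in its middle and at its lower end. In NSCs the mean FPKM fell from Rbbp7 (105.5) through Rbbp4 (72.2), Ezh2 (34.0), Bmi1 (24.4), Suz12 (21.3), Eed (19.5), Rnf2 (17.5), Jarid2 (13.03) and Ring1 (12.6) to Ezh1 (1.61). Neighbours in that order did not overlap except Jarid2 and Ring1, whose values overlapped. In STO cells Rbbp7 (174.9) and Rbbp4 (43.6) again led, followed by Suz12 (37.7), Ezh2 (34.9), Bmi1 (31.1), Eed (25.3), Rnf2 (23.3), Ring1 (8.32), Ezh1 (3.32) and Jarid2 (2.77). There no neighbours overlapped, but some gaps were narrow. The lowest Suz12 value was 36.61 FPKM against a highest Ezh2 value of 36.44 FPKM. The lowest Ezh1 value was 3.14 FPKM against a highest Jarid2 value of 3.08 FPKM, so these places in the order are uncertain. Suz12, which stood below Ezh2 and Bmi1 in NSCs, stood above both in STO cells, and Jarid2 took the last place, below Ezh1.

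Several members can stand in for each other, so the share of the summed FPKM that 1 paralog held was taken in each sample. Ezh2 held 96.1% and 94.8% of Ezh1 and Ezh2 in NSCs and 91.5%, 91.3% and 91.2% in STO cells, a difference of -4.13 percentage points. Rbbp4 held 43.8% and 37.4% of Rbbp4 and Rbbp7 in NSCs and 21.2%, 19.7% and 19.0% in STO cells, a difference of -20.7 points. This was the widest shift of the 4 shares. Copies and opposite-strand overlaps of Rbbp4 and Rbbp7, described below, leave this share uncertain, and their part in it was not tested. Rnf2 held 55.5% and 61.4% of Ring1 and Rnf2 in NSCs and 72.1%, 76.8% and 72.3% in STO cells, a difference of 15.3 points. Bmi1 held 36.2% and 39.8% of the 6 Pcgf genes in NSCs and 27.1%, 27.8% and 27.4% in STO cells, a difference of -10.6 points. The groups did not overlap for any of the 4 shares. An exact two-sided permutation test, which doubled the one-sided p, gave p = 0.2 for each, also after Benjamini-Hochberg adjustment over the 4. That is the smallest p this test can give over 10 arrangements of 2 against 3 samples, so it could not reach the threshold. Shares do not depend on how a whole sample is scaled.

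**Figure D3:**
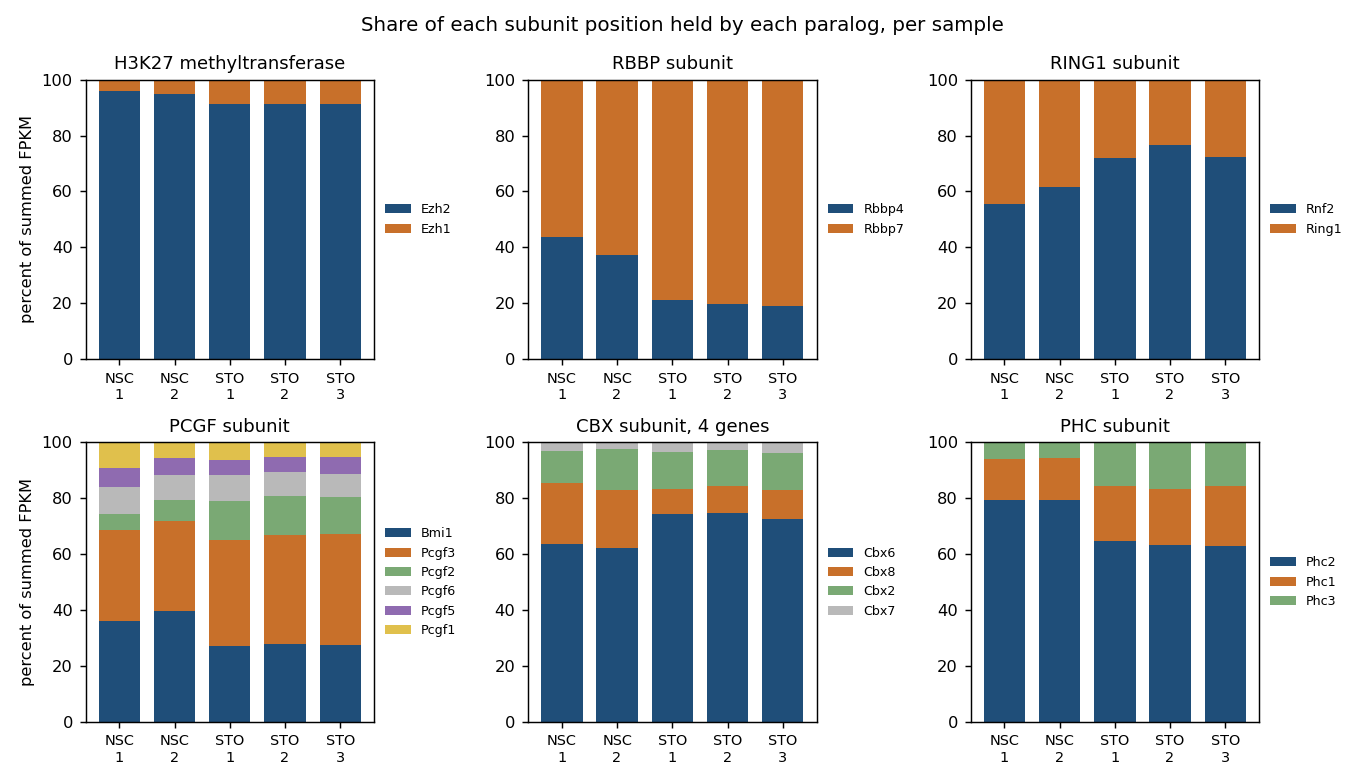
Percent of the summed FPKM of each subunit position held by each paralog in the 2 NSC and 3 STO samples (stacked bars, adding to 100% over the genes shown). Rbbp4 takes 43.8% and 37.4% of its pair in NSCs and 19.0% to 21.2% in STO cells, and Ezh2 takes over 90% of its pair in all 5 samples.

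In the PCGF position, which sets the type of PRC1, Bmi1 was higher in STO cells while its share was lower, and other PCGF genes differed by more. Pcgf2 (MEL18), the paralog closest to Bmi1, had 3.56 and 4.98 FPKM in NSCs and 15.0 to 16.3 FPKM in STO cells. The mean was 3.65-fold higher and the difference was 1.67 (limma, adjusted p = 2e-05). Pcgf3, a subunit of variant PRC1, had 20.2 and 21.2 FPKM against 42.4 to 45.6 FPKM, a difference of 1.06 (limma, adjusted p = 4.8e-06). Pcgf5 and Pcgf6 were higher too, by 0.55 and 0.62. Pcgf1 did not pass, with a difference of 0.37 (limma, adjusted p = 0.059). It passed after rescaling to TPM, after quantile normalization (limma, adjusted p = 0.045) and with the replicate number as a block (limma, adjusted p = 0.01). Without NSC replicate 1 its difference was 0.61. In all, 4 of these 5 genes were called higher and 0 lower, beside 41.9% and 43.7% of all genes, with a median difference of 0.62. In STO cells Pcgf3 held the largest share of the 6 genes, 38.9% on average against 27.4% for Bmi1, while in NSCs Bmi1 held 38.0% and Pcgf3 32.2%.

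The accessory subunits of PRC2 sort the complex into 2 forms, 1 with a Polycomb-like protein (MTF2, PHF1 or PHF19) and 1 with JARID2 and AEBP2. All 3 Polycomb-like genes were higher in STO cells. Phf1 had 1.57 and 1.21 FPKM in NSCs and 11.3, 10.2 and 11.2 FPKM in STO cells, a mean 7.81-fold higher and a difference of 2.31 (limma, adjusted p = 8.2e-07). Mtf2 had 6.79 and 7.004 FPKM against 15.7, 16.5 and 15.1 FPKM, a difference of 1.09, and Phf19 differed by 0.46. Aebp2 also was higher, by 0.38, with 16.1 to 16.8 FPKM in NSCs and 20.9 to 22.4 FPKM in STO cells, so Jarid2 and its partner Aebp2 moved in opposite directions. Lcor was higher by 0.33. Epop, a partner of the Polycomb-like form, was lower by -0.29 (limma, adjusted p = 0.0058), and not called after rescaling to TPM or without NSC replicate 2, at -0.25 (limma, adjusted p = 0.058). In total 5 of the 6 were called higher and 1 lower, beside 41.9% and 43.7% of all genes, with a median of 0.42. Jarid2 and Aebp2 together made up 68.3% and 67.8% of the summed FPKM of these 2 and the 3 Polycomb-like genes in NSCs, and 41.4%, 42.3% and 40.3% in STO cells. This last share was chosen after its values were seen and was not tested.

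Of 4 CBX genes, whose chromodomain proteins tie canonical PRC1 to methylated H3K27, 3 were called higher and 1 lower in STO cells. Cbx6, the most abundant of the 4, had 29.2 and 27.5 FPKM in NSCs and 48.5 to 53 FPKM in STO cells, a difference of 0.83 (limma, adjusted p = 2.4e-05). Cbx2 and Cbx7 were higher by 0.58 and 0.56, and Cbx7 was no longer called without NSC replicate 2, at 0.42 (limma, adjusted p = 0.059). Cbx8 was lower by -0.50, and it held 22.0% and 20.9% of the summed FPKM of the 4 genes in NSCs against 8.85% to 10.1% in STO cells.

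The PHC proteins, which join PRC1 complexes into larger assemblies, were split. Phc2 was the most abundant of the PRC1 genes in NSCs, with 92.5 and 106.9 FPKM, and had 42.5, 39.6 and 38.1 FPKM in STO cells, a difference of -1.29 (limma, adjusted p = 1.2e-05). Phc1 was lower by -0.50, and Phc3 was higher by 0.42. Scmh1, a sex-comb protein associated with PRC1, had 6.42 and 6.33 FPKM in NSCs against 27, 26.95 and 25.3 FPKM in STO cells, a difference of 1.89 (limma, adjusted p = 2.6e-07). Scml2 did not reach the filter, at 1.04 and 0.803 FPKM in NSCs and listed at 0 in all STO samples. In all, 2 of the 4 tested genes were higher and 2 lower.

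Variant PRC1 is built with RYBP or YAF2 in place of a CBX protein. Yaf2 was lower in STO cells, at 14.7 to 15.4 FPKM against 29.9 and 38.2 FPKM, a difference of -1.12 (limma, adjusted p = 7.4e-05). Its homolog Rybp did not pass, at -0.10 (limma, adjusted p = 0.13), with the sign reversed after rescaling to TPM. Kdm2b, which binds unmethylated CpG islands, and Bcor were higher by 0.33 and 0.48. Bcorl1 and L3mbtl2 were lower by -0.34 and -0.21, and neither was called after rescaling to TPM. Without NSC replicate 2 their differences were -0.23 and -0.13. Bcorl1 was also not called after quantile normalization, at -0.21 (limma, adjusted p = 0.059). L3mbtl2 was at -0.20 and not called without STO replicate 3 (limma, adjusted p = 0.054) or with the replicate number as a block (limma, adjusted p = 0.059). Of 6 tested genes 2 were higher and 3 lower, and Auts2 was not analysed here.

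Over these 5 lists of further subunits, 25 genes were tested, of which 16 were called higher and 7 lower in STO cells, with a median difference of 0.42, beside 41.9% higher and 43.7% lower over all genes. After rescaling to TPM 17 were called higher and 4 lower, beside 5876 higher and 4669 lower of all 12292 genes. Without NSC replicate 2 the median difference of the 25 genes was 0.42, against -0.005 over all genes.

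**Figure D4:**
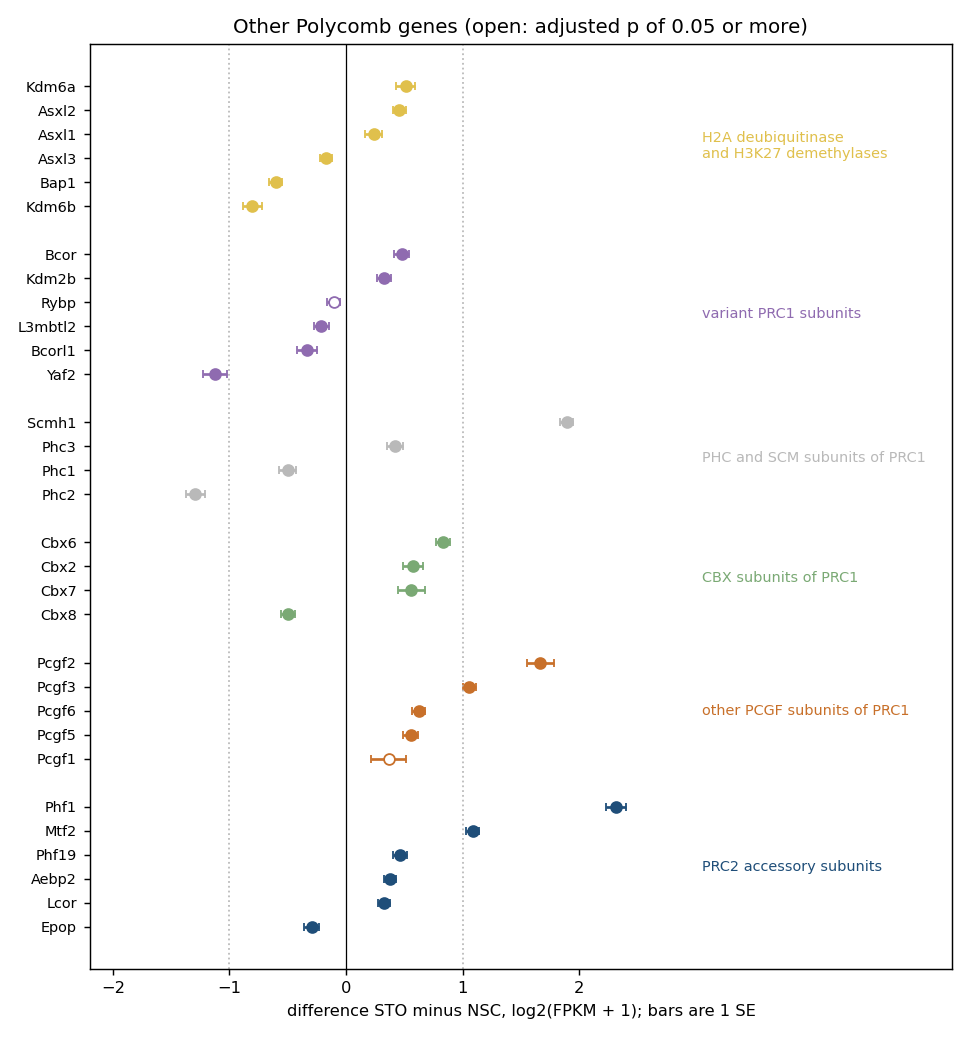
Difference, STO minus NSC on the log2(FPKM + 1) scale, of further Polycomb genes and of genes that oppose the Polycomb marks, by list (bars are 1 SE of the limma fit, open points have an adjusted p of 0.05 or more). Phf1 at 2.31, Scmh1 at 1.89 and Pcgf2 at 1.67 lie furthest to the right, and Phc2 at -1.29 and Yaf2 at -1.12 furthest to the left.

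Genes that remove the Polycomb marks were split, with 3 of 6 called higher and 3 lower in STO cells. Of the H3K27 demethylases, Kdm6a was higher by 0.51 and Kdm6b lower by -0.80, with 24.0 and 24.4 FPKM in NSCs and 12.0 to 14.3 FPKM in STO cells (limma, adjusted p = 0.00013). Bap1, the H2A deubiquitinase, was lower by -0.60, while its cofactors Asxl1 and Asxl2 were higher by 0.24 and 0.46. Asxl1 was no longer called without NSC replicate 1, at 0.15 (limma, adjusted p = 0.078), or without STO replicate 1, at 0.22 (limma, adjusted p = 0.056). Asxl3 was at about 1 FPKM or below in every sample, with a difference of -0.17 that turned to 0.62 after quantile normalization. It was not called after rescaling to TPM or without STO replicate 2, at -0.16 (limma, adjusted p = 0.055). Nor was it called without STO replicate 3 (limma, adjusted p = 0.06) or with the replicate number as a block (limma, adjusted p = 0.11), each at -0.16.

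Rbbp4 and Rbbp7 also belong to complexes outside Polycomb, such as CAF-1, NuRD and SIN3. Of 8 genes of these complexes 5 were called higher and 2 lower in STO cells, beside 41.9% and 43.7% of all genes. Their median was 0.51. Chaf1a and Chaf1b, the large CAF-1 subunits, were higher by 0.52 and 0.51, Mta1 and Mta2 by 0.65 and 0.82, and Sin3a by 0.68. Hdac2 was lower by -0.60, from 99.6 and 115.8 FPKM to between 66.8 and 74.3 FPKM, and its paralog Hdac1 had a difference of 0.29 (limma, adjusted p = 0.057), which was called after rescaling to TPM. Chd4 was near the threshold at -0.16 (limma, adjusted p = 0.04) and changed sign after rescaling to TPM and with the highest transcript alone. Chd4 was not called after quantile normalization, at -0.02, with the replicate number as a block, at -0.15, or without STO replicate 1 or 3, at -0.14 and -0.15. Without NSC replicate 1 and without NSC replicate 2 its difference was -0.15 and -0.17.

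Cell cycle markers are given because Ezh2 is known to follow proliferation. Of 8 such genes 4 were called higher and 2 lower in STO cells, beside 41.9% and 43.7% of all genes. Their median was 0.16, and their summed level was 593.1 and 602.2 FPKM in NSCs and 578.2 to 606.8 FPKM in STO cells. Mki67 was higher by 0.69, Top2a by 0.55, Mcm5 by 0.23 and Tyms by 1.47. Pcna was lower by -0.78 and Ccnb1 by -0.34. Cdk1 and Mcm2 did not pass, at 0.08 and 0.01, and after rescaling to TPM both were called higher, at 0.26 and 0.18 (limma, adjusted p = 0.0039 and 0.024). Without NSC replicate 1, Mcm2 turned to -0.068 and Mcm5 stood at 0.20. With the replicate number as a block Mcm5 was no longer called, at 0.20 (limma, adjusted p = 0.055). The part of proliferation in the members' values was not tested.

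At the Ink4-Arf locus, a classic Polycomb target, Cdkn2b was lower in STO cells. It had 68.7 and 63.8 FPKM in NSCs and 13.8, 11.4 and 12.97 FPKM in STO cells, a difference of -2.30 (limma, adjusted p = 8.7e-07). Cdkn2a, which encodes p16 and ARF, had 42.2 and 37.5 FPKM in NSCs and 34.1 to 37.7 FPKM in STO cells. It did not pass, at -0.13 (limma, adjusted p = 0.15), and its sign turned after rescaling to TPM.

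Transcripts of a member could differ in share even where the gene did not. Ezh2 was split in a like manner in all samples, its main transcript holding 82.3% and 85.2% in NSCs and 85.7% to 87.7% in STO cells. Jarid2 transcripts from the downstream start printed above held 100% of its FPKM in NSC replicate 1, 54.8% in NSC replicate 2, and 43.5%, 32.1% and 40.5% in the STO replicates. In FPKM, the downstream start stood at 12.9 and 7.21 in NSCs and at 0.857 to 1.34 in STO cells, and the upstream start at 0 and 5.94 in NSCs and at 1.53 to 1.81 in STO cells. The NSC replicates differed widely in the split while their sums lay close together. The status given with each value was OK for all transcripts of the members, so no 0 was flagged as a failed estimate. An exact 0 can still be a poor estimate of a transcript's share. Suz12 also had a transcript listed at 0 in NSC replicate 1 but at 3.19 to 5.71 FPKM in the other samples. Of the 18 transcripts 4 were listed at 0 in every sample, 3 of them of Rnf2.

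**Figure D5:**
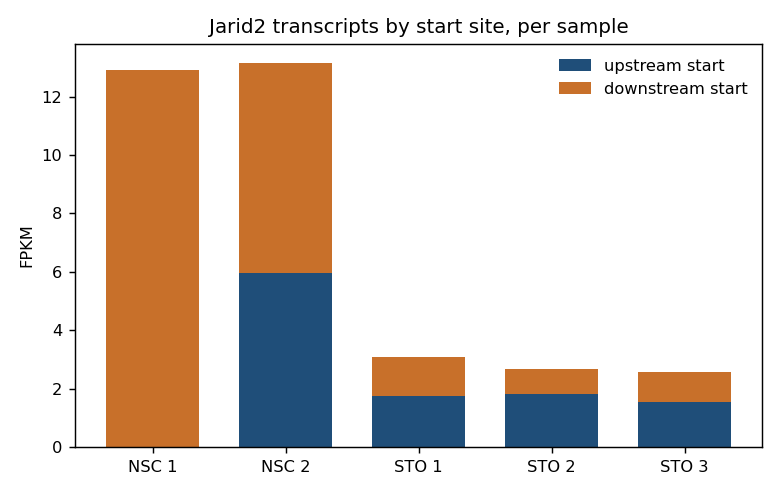
FPKM of Jarid2 transcripts in each sample, stacked by start site (blue: the upstream start, orange: the start 497 bases downstream). NSC replicate 1 has none from the upstream start and NSC replicate 2 has 5.94 FPKM from it, although both sum to about 13 FPKM.

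By their pattern over the 5 samples, the genes nearest to Ezh2 among the 12292 fitted were Ube2w, Cacnb2 and Utp6, and those nearest to Ezh1 were Tmem231, Nop58 and Sec23ip. Nearness was the Euclidean distance between log2(FPKM + 1) values centred on each gene's mean, and it ran from 0.039 to 0.043 for Ezh2 and from 0.034 to 0.039 for Ezh1. Nop58 had a mean of 59.1 FPKM in NSCs and 96.8 FPKM in STO cells, against 1.61 and 3.32 FPKM for Ezh1. This scale understates the change of low genes, so nearness to Ezh1 is not a like level and need not be a like fold change.

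Copies elsewhere in the genome limit how surely some members were counted. The longest GENCODE transcript of each member was aligned to mm9, and 4 members had a further match of at least 80% identity over at least 40% of the transcript. Rbbp7 matched chrX:138645002-138646748 at 96.5% identity over 77.7% of its length, and Bmi1 matched chrX:146655263-146658154 at 94.8% over 81.9%. Rbbp4 matched chr10:92004584-92006489 at 90.5% over 43.7%, and Suz12 matched chrX:75651095-75665938 at 85.0% over 89.8%. Reads of these genes could be shared with the copies, and their levels are uncertain to that extent. In the GENCODE annotation, exons of 4 members also overlap exons of genes on the opposite strand. Those of Rbbp4 share 782 bases with Sync and 796 with Gm17525, those of Suz12 share 178 with Gm16706, those of Ezh2 share 174 with Gm17629 and those of Rbbp7 share 174 with Txlng. The kit marked the strand, but whether the quantification used it is not given in the sources used here.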

How the data were processed

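RNA-seq of 2 NSC and 3 STO samples, grouped by their titles, was used. The authors prepared stranded mRNA libraries, aligned the reads to mm9 with HISAT2 (given as version 4.8.2) and deposited FPKM values with confidence bounds from Cufflinks 2.2.1 for 40201 RefSeq transcripts, with depth divided out and no counts. The bounds were used to infer fragments, taking the upper bound as 2 SD of a count, an assumption that did not hold for all members. Symbols came from a RefSeq table of GRCm38.p6, used for names and promoter windows, which matched 99.4% of transcripts, and coordinates are those of mm9. FPKM values of overlapping transcripts with the same symbol were summed.

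The genes whose mean reached 1 FPKM in either cell type were compared on log2(FPKM + 1) with limma 3.58.1 in R 4.3.3 (eBayes with a trend). The fit was tested on simulated data. Paralog shares were compared by exact permutation with scipy. Copies were searched with minimap2. The genes named were the members, the genes of the lists and the 3 genes nearest to Ezh1 and to Ezh2, and 3 genes of the lists are not reported here. The members and lists were chosen with earlier results of these data known. Alternatives changed the pseudocount, filter, scaling, trend, transcripts and samples. Hi-C and compartment data were not analysed here.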

Additional observations from a re-analysis of the deposited data

How the results depend on the processing

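No member of the 9 called changed direction under any of 12 alternatives, and Ring1 was the one that lost its call, without NSC replicate 1, where its difference was -0.34. Ezh2 changed sign without NSC replicate 2, with a range of -0.037 to 0.11 over the samples left out in turn, and was called after rescaling to TPM, at 0.21. The count of members higher by at least 1, 0 as reported, was 1 with a pseudocount of 0.1, 1 after rescaling to TPM and 1 after quantile normalization, each time Ezh1. The differences of the 4 shares kept their sign with each sample left out and with the highest transcript alone.

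Replicate numbers 1 and 2 occur in both cell types, and nothing in the sources pairs them. Deviations of same-numbered samples correlated at 0.008 and 0.061, and those of NSC 2 are the mirror image of those of NSC 1, so the check settles little. With the replicate number as a block, 6 members were called higher and 3 lower, and the difference was -1.86 for Jarid2 and 0.0061 for Ezh2. Over all genes 4994 were called higher and 5252 lower with the block.

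With 2 NSC samples the spread of that group rests on 1 difference per gene, which limma moderates over all genes. Counting error as inferred from the bounds was largest for Ezh1 and Jarid2, and the SE of the fit was largest for Ring1.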
